A study of Mus musculus with 9 samples.

Results

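The genes described here encode elastin, the 2 fibrillins Fbn1 and Fbn2, and 5 fibulins (Fbln1, Fbln2, Fbln5, Efemp1 and Efemp2). They also encode the microfibril and fibre-surface proteins Mfap5 and Emilin1. They were taken by symbol from a deposited table of 25239 genes, and all 10 were found. The table comes from RNA sequencing of primary astrocytes grown from the cerebral cortex of mouse pups at postnatal day 4 and kept in medium with horse and fetal bovine serum. There were 3 libraries of untreated control cultures, 3 of cultures exposed to 200 µM H2O2 for 3 h, washed and harvested 24 h later (day 1), and 3 of cultures treated in the same way and harvested 72 h after washing (day 3). The labels name no strain, sex or genotype and give no harvest time for the controls. Nor do they state that each replicate was a culture of its own, and the spread behind every p-value is therefore that between libraries, possibly technical.

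Elastic fibres give stretch and recoil to arteries, lung and skin. They consist of a core of cross-linked elastin laid down on a scaffold of fibrillin microfibrils, and the fibulins link the 2 and bring in the lysyl oxidases that cross-link elastin. Fibrillin microfibrils also hold latent TGF-beta through the latent TGF-beta binding proteins. In the brain, elastic fibres are known mainly from the walls of blood vessels and the meninges, while several fibulins and fibrillins also occur in matrix that contains no elastin.

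Levels are given as deposited, in FPKM (a fragment count divided by the length of the gene and the size of the library). Comparing levels of different genes in FPKM depends on the length the authors used for each. For Eln that length worked out at 3851 bases, against 8098 bases of merged exon in GENCODE M21. For Efemp1 it was 2036 against 2037. Changes are log2 fold changes, or folds derived from them, of log2(FPKM + 0.1) after rescaling between libraries, and a gene is said to have risen or fallen when limma's test, adjusted by Benjamini-Hochberg over 12611 genes, gave a p under 0.05. All 10 genes passed the filter of a mean of at least 1 FPKM. Library totals worked out from the FPKM ran from 23032594 to 38414668 reads. Behind the values stood 120 to 179 reads per library for Mfap5, the lowest of the 10, and 285 to 787 for Efemp1. The other 8 had at least 623 reads in every library, up to 16938 for Fbln2.

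The library labels were checked against markers. Counts of markers that changed are read against all tested genes. Of these, 31.1% were higher and 31.1% lower than control on day 1, and 7.37% higher and 6.45% lower on day 3. All 8 astrocyte markers passed the filter, with Gfap at 1493 ± 33.7 FPKM (SD, n = 3) in control; on day 1, 5 of them fell and 2 rose, and their sum went from 2268 to 2319 FPKM in control to 1766 to 1992. Of 8 endothelial markers only Cdh5 passed the filter, at 11.1 ± 0.338 FPKM in control and 13.4 ± 0.366 on day 3 (limma adjusted p = 0.00160), while Cldn5 and Pecam1 had means of 0.00613 and 0.0356 FPKM in control. All 9 oligodendrocyte lineage markers tested fell on day 1, with 8 still lower on day 3, and their list summed to 535 to 568, 356 to 383 and 442 to 476 FPKM in control, on day 1 and on day 3. All 4 ependymal markers tested fell on day 1, from a sum of 126 to 140 to one of 74.1 to 83.0 FPKM. Of 11 microglia markers tested, 10 fell and 1 rose on day 1. The 12 listed summed to 306 to 331 FPKM in control, 132 to 144 on day 1 and 252 to 321 on day 3. Genes of fibroblasts and of mural cells, which make elastic fibre proteins in tissue, were present and changed between the groups. The summed level of 12 mural and smooth muscle markers was 1213 to 1312 FPKM in control, 2224 to 2302 on day 1 and 1124 to 1218 on day 3. Most of it came from the contractile genes Acta2 and Tagln, with Acta2 at 479 ± 15.2 FPKM in control. The smooth muscle gene Myh11 was under the filter, at 0.253 ± 0.0427 FPKM in control, 0.775 ± 0.0899 on day 1 and 0.318 ± 0.0489 on day 3. Of the 7 mural markers tested, 6 rose on day 1 and none fell. Among the genes of pericytes, Pdgfrb went from 19.3 ± 0.479 to 31.5 ± 0.738 FPKM (limma adjusted p = 2.74e-07) and Notch3 and Cspg4 also rose, Rgs5 was at 1.37 ± 0.0580 and 1.43 ± 0.150, and Kcnj8, Abcc9 and Higd1b averaged under 0.1. The sum of 12 fibroblast and meningeal markers was 218 to 220, 120 to 129 and 233 to 240 FPKM in the 3 groups. In control most of it came from Igf2 and Dcn. Of 9 tested, 4 rose and 5 fell on day 1. Dcn went from 45.1 ± 1.85 in control to 9.01 ± 1.50 on day 1 and 52.5 ± 2.89 FPKM on day 3. Igf2 went from 112 ± 0.348 to 46.7 ± 4.07 and 119 ± 3.43 FPKM, and Lum, Pdgfra and Foxc1 also fell on day 1. Crabp2 rose from 2.52 ± 0.257 to 14.6 ± 0.728 FPKM on day 1, and Tbx18, Twist1 and Aldh1a2 also rose. The share of reads on Rn45s, the ribosomal RNA precursor, was 9.41% to 11.9% in control, 7.67% to 9.36% on day 1 and 9.15% to 11.1% on day 3. The part of these shifts in the changes below was not tested, and in bulk RNA a change in the number of cells of a type and a change in RNA per cell cannot be told apart.

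On day 1 all 10 genes differed from control, and they went both ways: Fbln2, Fbn1, Eln, Mfap5, Emilin1 and Efemp2 rose, and Fbln1, Fbln5, Efemp1 and Fbn2 fell. This is read against 62.2% of all tested genes called in this comparison, 31.1% higher and 31.1% lower. The 3 values of each group did not overlap for any of the 10, as for 66.1% of all tested genes. The median change of the 10 was 0.28 on the log2 scale, from -1.08 to 2.03, and the median size regardless of sign was 0.54, against 0.19 over all tested genes. Changes of at least 2-fold were found for Fbln2, Fbn1 and Fbln1, while 3.43% of all tested genes were called with a change that large, 1.47% higher and 1.96% lower.

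**Figure D1:**
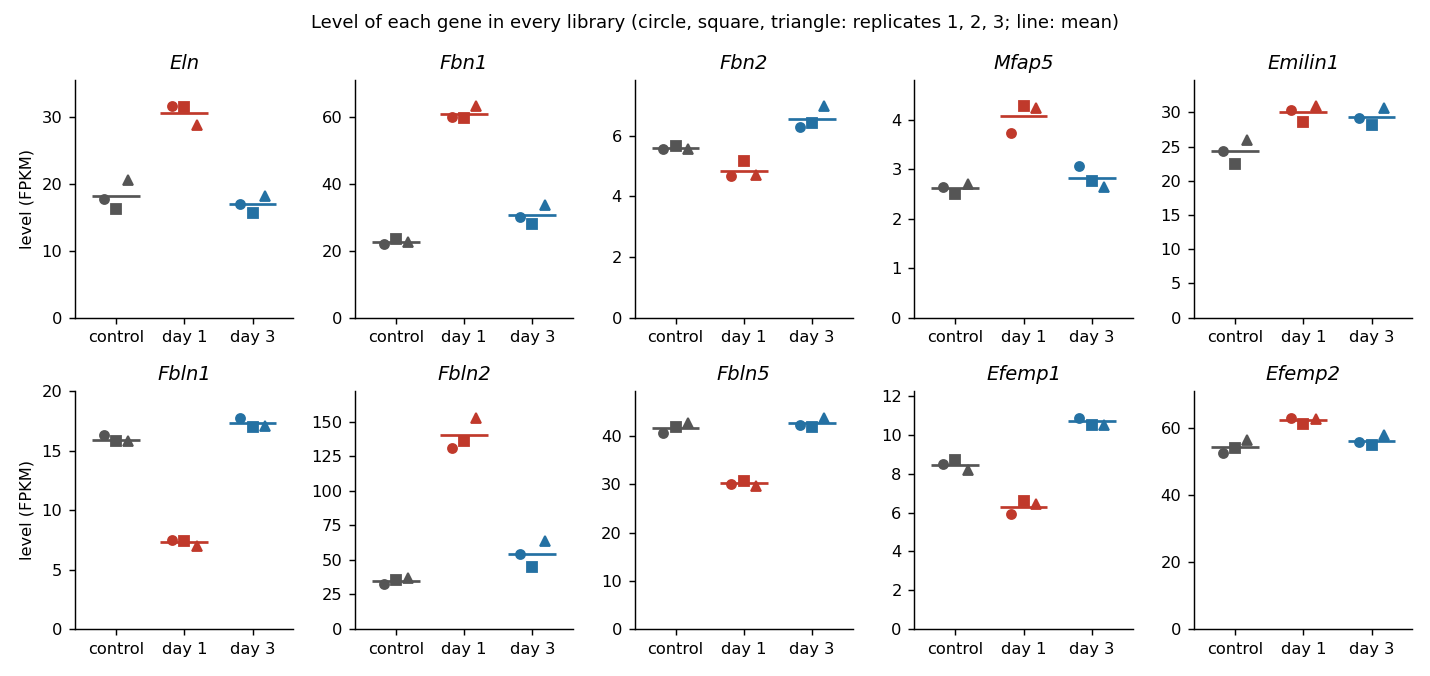
FPKM (vertical axis, from 0) of each of the 10 genes in the 3 control, 3 day 1 and 3 day 3 libraries; symbols mark replicates 1 to 3 and the line is the group mean. Day 1 values lie above control for 6 genes and below it for 4, and by day 3 Eln, Fbln5, Efemp2 and Mfap5 overlap control.

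Elastin itself (Eln, chromosome 5, 134702595 to 134747368, GRCm38.p6) forms the elastic core. It was at 17.7, 16.2 and 20.5 FPKM in the control libraries, 31.6, 31.5 and 28.8 on day 1, and 17.0, 15.7 and 18.2 on day 3. All day 1 libraries stood above the other 6, while control and day 3 overlapped. It rose 1.73-fold on day 1 (95% interval 1.54 to 1.94, adjusted p = 5.95e-06 by limma). On day 3 the level was 0.949 times control, with an interval of 0.846 to 1.06 (adjusted p = 0.572). Eln thus fell 1.82-fold between the days (adjusted p = 4.60e-06).

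The fibrillins, large glycoproteins that polymerise into microfibrils, moved in opposite directions on day 1. Fbn1 (chromosome 2, 125300594 to 125506485), the main fibrillin of adult tissue and the gene mutated in Marfan syndrome, was at 21.9, 23.5 and 22.5 FPKM in control, 60.1, 59.6 and 63.2 on day 1, and 30.0, 28.0 and 33.8 on day 3. The 3 groups did not overlap. Fbn1 rose 2.74-fold on day 1 (interval 2.52 to 2.99, adjusted p = 1.28e-08) and was 1.36-fold above control on day 3 (interval 1.25 to 1.48, adjusted p = 0.000684). Annotation in GENCODE M21 places 2442 bases of Fbn1 exon opposite exons of Gm9913 on the other strand, 267 bases of Eln opposite Gm30003, 129 of Fbn2 opposite Gm26507 and 173 of Efemp2 opposite Mus81. The sources used here do not state whether reads were counted by strand, so reads of such partners cannot be told apart.

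Fbn2 (chromosome 18, 58008623 to 58210572), best known from embryonic microfibrils, was lower than Fbn1 in every library. It was at 5.56, 5.68 and 5.55 FPKM in control, 4.66, 5.17 and 4.71 on day 1, and 6.29, 6.44 and 6.98 on day 3. Control thus lay between the 2 treated groups, with no overlap. Fbn2 fell 1.13-fold on day 1 (interval 1.04 to 1.22, adjusted p = 0.0143) and was 1.18-fold above control on day 3 (interval 1.09 to 1.28, adjusted p = 0.0132). The day 1 call was lost without day 1 replicate 1 (adjusted p = 0.0545) and the day 3 call without day 3 replicate 3 (0.0576). Both were also lost without control replicate 1 and day 3 replicate 2, the libraries with the highest share of reads on Rn45s (0.0545 and 0.0609).

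The ratio of Fbn1 to Fbn2 within a library, which does not depend on scaling between libraries, followed from these changes. It was 3.93, 4.14 and 4.06 in control, 12.9, 11.5 and 13.4 on day 1, and 4.78, 4.35 and 4.84 on day 3. The mean was 4.05 ± 0.106 in control and 12.6 ± 0.981 on day 1 (SD, n = 3; two-sided exact permutation p = 0.100, the smallest that 3 against 3 libraries allow; adjusted over 9 such ratio tests 0.100). The day 3 ratios stood between control and day 1 and overlapped neither.

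The 2 microfibril-associated genes among the 10, Mfap5 and Emilin1, were both higher on day 1. Their relatives Mfap2 and Emilin2, outside the 10, were both lower than control on day 1 (limma adjusted p = 0.0347 and 0.00146). Mfap5 (chromosome 6, 122513584 to 122529290) encodes MAGP2, a small protein bound to microfibrils, and was the lowest of the 10 in every group. It was at 2.64, 2.51 and 2.71 FPKM in control, 3.74, 4.28 and 4.25 on day 1, and 3.07, 2.76 and 2.65 on day 3. Its rise on day 1 was 1.57-fold (interval 1.40 to 1.77, adjusted p = 3.11e-05), and day 3 overlapped control (1.09-fold, interval 0.965 to 1.22, adjusted p = 0.357).

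Emilin1 (chromosome 5, 30913387 to 30921279), a glycoprotein at the interface of elastin and microfibrils that also restrains the processing of TGF-beta, was above control on both days, as were Fbln2 and Fbn1. It was at 24.4, 22.5 and 26.0 FPKM in control, 30.4, 28.6 and 30.9 on day 1, and 29.1, 28.2 and 30.6 on day 3. Both treated groups lay above control and overlapped each other. The change was 1.26-fold on day 1 (interval 1.16 to 1.37, adjusted p = 0.000335) and 1.22-fold on day 3 (interval 1.12 to 1.33, adjusted p = 0.00677). Between the days the log2 difference was -0.05 with an interval of -0.17 to 0.07 (adjusted p = 0.471), which made Emilin1 the 1 gene of the 10 not called in that comparison.

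The long fibulins moved furthest apart. Fbln2 (chromosome 6, 91212460 to 91272540) encodes fibulin-2, which binds fibrillin, elastin, fibronectin and proteoglycans. It was at 32.4, 35.3 and 37.0 FPKM in control, 131, 136 and 153 on day 1, and 54.1, 44.7 and 63.8 on day 3. The groups did not overlap, and the day 3 libraries were spread the most, with a coefficient of variation of 17.6% against 6.74% in control. Fbln2 rose 4.09-fold on day 1 (interval 3.48 to 4.79, adjusted p = 8.57e-08) and was 1.55-fold above control on day 3 (interval 1.32 to 1.82, adjusted p = 0.00287). Day 3 replicate 2, the lowest day 3 library for Fbln2, Fbn1, Eln, Emilin1, Fbln1, Fbln5 and Efemp2, had the highest Rn45s share of that group at 11.1%, and the part of that share in the spread was not tested. Without it and control replicate 1 the log2 change of Fbln2 on day 3 was 0.71, against 0.64 with all libraries.

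Fbln1 (chromosome 15, 85205949 to 85286294), which encodes fibulin-1, a component of basement membranes and elastic fibres, went the other way on day 1. It was at 16.3, 15.8 and 15.8 FPKM in control, 7.50, 7.38 and 7.01 on day 1, and 17.8, 17.0 and 17.1 on day 3. The day 1 libraries were all below 8 FPKM and the day 3 libraries all slightly above control. The fall on day 1 was 2.12-fold (interval 2.01 to 2.24, adjusted p = 5.61e-09). On day 3 Fbln1 was 1.10-fold above control (interval 1.04 to 1.16, adjusted p = 0.0331), a call lost without control replicate 2 or 3 (0.106 and 0.104) or day 3 replicate 1, 2 or 3 (0.122, 0.0639 and 0.0623). It was also lost with no rescaling (0.0746), with upper-quartile scaling (0.0512) and without the 2 libraries with most Rn45s (0.0548). The ratio of Fbln2 to Fbln1 went from 1.99, 2.24 and 2.35 in control to 17.5, 18.4 and 21.8 on day 1 and 3.04, 2.63 and 3.74 on day 3. The group means were 2.19 ± 0.181, 19.2 ± 2.26 and 3.13 ± 0.561 with no overlap (exact permutation p = 0.100 for each pair of groups, the smallest possible).

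The short fibulins, Fbln5, Efemp1 and Efemp2, changed less. Fbln5 (chromosome 12, 101746565 to 101819119) encodes fibulin-5, which tethers elastin to microfibrils and to integrins on cells. It was at 40.6, 41.9 and 42.8 FPKM in control, 30.1, 30.8 and 29.7 on day 1, and 42.4, 42.0 and 43.9 on day 3. Only the day 1 libraries stood apart from the others for this gene, 1.35-fold lower than control (interval 1.30 to 1.41, adjusted p = 1.86e-07). On day 3 Fbln5 was at 1.04 times control with an interval of 0.996 to 1.08 (adjusted p = 0.234).

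Efemp1 (chromosome 11, 28853154 to 28926743) encodes fibulin-3, which is abundant in the eye and in fascia and is not needed for elastic fibres in most tissues. It was at 8.50, 8.69 and 8.20 FPKM in control, 5.92, 6.58 and 6.44 on day 1, and 10.9, 10.5 and 10.5 on day 3. Control again lay between the treated groups without overlap. Efemp1 fell 1.31-fold on day 1 (interval 1.22 to 1.41, adjusted p = 3.99e-05) and was 1.27-fold above control on day 3 (interval 1.18 to 1.36, adjusted p = 0.00114). Both calls held in all 21 alternative fits. The 2 comparisons share the control libraries, and the direct comparison of day 3 with day 1 gave a 1.66-fold rise (interval 1.54 to 1.78, adjusted p = 6.65e-07).

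Efemp2 (chromosome 19, 5473946 to 5482520) encodes fibulin-4, which brings lysyl oxidase to elastin and is required for elastic fibres. It was the highest of the 10 in control, at 52.5, 54.0 and 56.4 FPKM, and was at 63.0, 61.1 and 62.7 on day 1 and 55.8, 54.8 and 57.7 on day 3. Day 1 stood above both other groups, which overlapped. The rise on day 1 was 1.17-fold (interval 1.12 to 1.23, adjusted p = 6.89e-05) and the level on day 3 was 1.04 times control (interval 0.997 to 1.09, adjusted p = 0.206). The ratio of Efemp2 to Efemp1 was 6.43 ± 0.396 in control, 9.89 ± 0.692 on day 1 and 5.27 ± 0.196 on day 3, with no overlap between groups (exact permutation p = 0.100 for each pair, the smallest possible).

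**Figure D2:**
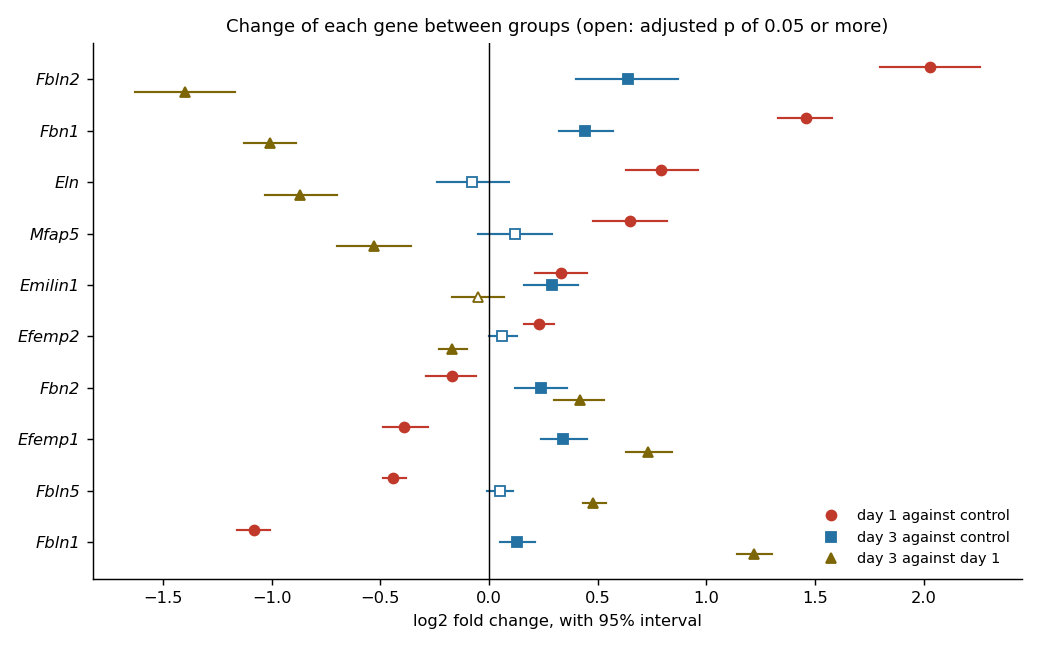
Log2 fold change (horizontal axis) with its 95% interval for each gene in the 3 comparisons; filled symbols passed the test and open symbols did not. Fbln2 at 2.03 and Fbln1 at -1.08 mark the ends on day 1, whereas the day 3 values against control lie between -0.08 and 0.64.

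On the scale of levels (FPKM), Efemp2 held the largest share of the fibulins in control and Fbln2 on day 1. Their summed level was 150 to 160 FPKM in the control libraries (mean 155), 238 to 259 on day 1 (mean 246) and 169 to 193 on day 3 (mean 181). Fbln2 made up 22.4% ± 0.797 of that sum in control, 56.8% ± 1.99 on day 1 and 29.8% ± 3.30 on day 3 (SD, n = 3). The share of Efemp2 went from 35.0% to 25.3% and then 31.1% although its own level rose on day 1, and Fbln1 from 10.3% to 2.97% and 9.58%.

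**Figure D3:**
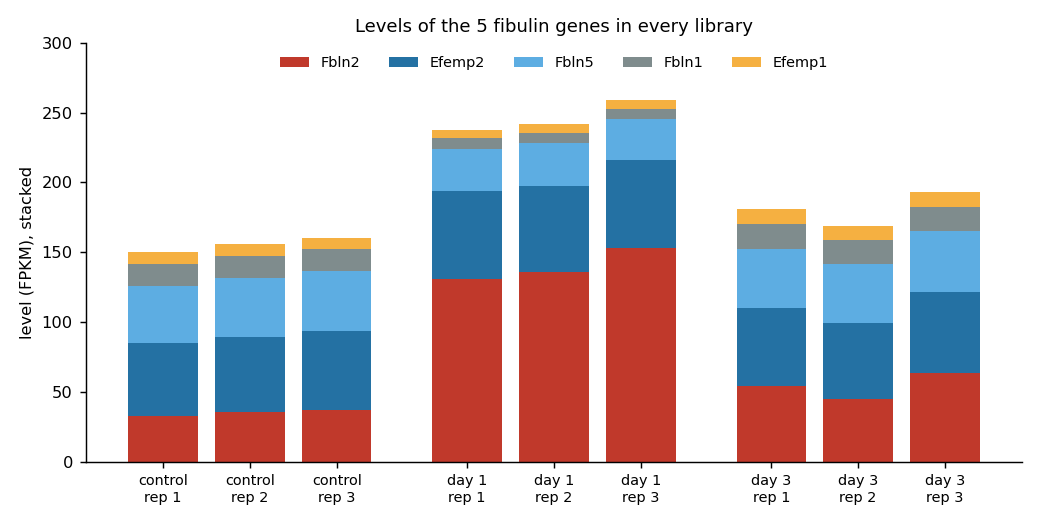
Stacked FPKM (vertical axis) of the 5 fibulin genes in each of the 9 libraries. The column is tallest in the 3 day 1 libraries, where Fbln2 fills 55.2% to 59.1% of it.

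The order of the 10 levels changed with it. In control it ran from Efemp2, Fbln5 and Fbln2 through Emilin1, Fbn1, Eln and Fbln1 to Efemp1, Fbn2 and Mfap5. Neighbours overlapped there for Emilin1 and Fbn1 and for Eln and Fbln1. On day 1 Fbln2 came first, above Efemp2 and Fbn1, which overlapped each other. Eln, Fbln5 and Emilin1 followed at 30.6, 30.2 and 30.0 FPKM and overlapped. On day 3 Efemp2 at 56.1 and Fbln2 at 54.2 FPKM overlapped at the top, as did Fbn1 with Emilin1 and Fbln1 with Eln. The last 3 places were held by Efemp1, Fbn2 and Mfap5 in all groups.

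**Figure D4:**
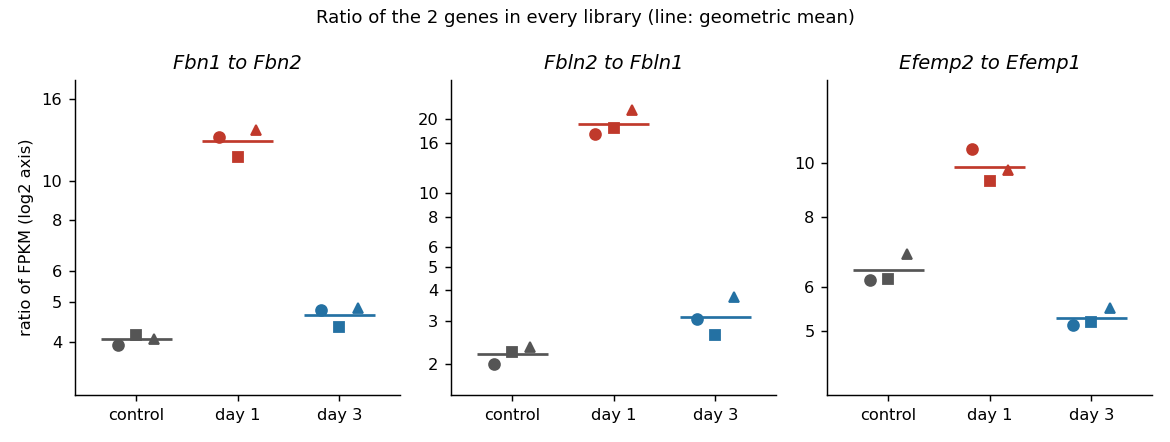
Ratio of the FPKM of 2 related genes within each library (vertical log2 axis) for Fbn1 to Fbn2, Fbln2 to Fbln1 and Efemp2 to Efemp1; the line is the geometric mean. All 3 ratios are highest in the day 1 libraries, and Efemp2 to Efemp1 on day 3 lies below control.

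On day 3, 6 of the 10 genes were higher than control (Fbln2, Fbn1, Efemp1, Emilin1, Fbn2 and Fbln1) and none was lower. Over all tested genes 13.8% were called in this comparison, 7.37% higher and 6.45% lower. The median log2 change was 0.19 for the 10 and 0.01 for all tested genes. The same 6 genes had groups that did not overlap, which was so for 30.3% of all tested genes. The count of 6 was 4 without day 3 replicate 3, and also 4 without the 2 libraries with most Rn45s.

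From day 1 to day 3, Fbln1, Efemp1, Fbln5 and Fbn2 rose and Fbln2, Fbn1, Eln, Mfap5 and Efemp2 fell, against 56.2% of all tested genes called, 27.9% higher and 28.4% lower. The groups of 9 of the 10 genes did not overlap, as for 61.8% of all tested genes. Fbln1 rose 2.33-fold (interval 2.20 to 2.46, adjusted p = 7.37e-09). Fbln2 fell 2.63-fold (interval 2.24 to 3.09, adjusted p = 1.64e-06) and Fbn1 2.02-fold (interval 1.85 to 2.20, adjusted p = 2.46e-07).

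Of the 3 fibulins that fell on day 1, Fbln1 and Fbln5 have a RefSeq promoter window that holds no annotated exon and lies outside the gene's span, and these are shown because both genes fell on day 1. The windows are the 250 bases just before the RefSeq start, on the gene's strand and 5′ to 3′ in build GRCm38.p6, with matches to the GC box GGGCGG (or CCGCCC) and the E-box CACGTG in capitals. Fbln1 is chr15:85205699-85205948 on the plus strand and Fbln5 is chr12:101819120-101819369 on the minus strand.
Fbln1: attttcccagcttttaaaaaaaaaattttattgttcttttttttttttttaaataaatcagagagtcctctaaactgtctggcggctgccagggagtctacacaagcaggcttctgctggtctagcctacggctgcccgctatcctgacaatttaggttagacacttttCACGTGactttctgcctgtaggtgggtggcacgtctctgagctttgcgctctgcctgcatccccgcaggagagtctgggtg
Fbln5: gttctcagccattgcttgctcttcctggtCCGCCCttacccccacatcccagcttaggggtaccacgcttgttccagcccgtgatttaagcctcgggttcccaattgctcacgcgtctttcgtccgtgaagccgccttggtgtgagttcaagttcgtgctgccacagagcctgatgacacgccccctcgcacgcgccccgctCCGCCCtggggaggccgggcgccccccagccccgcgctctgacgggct

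These windows share little. Their GC content was 46.4% for Fbln1 and 65.2% for Fbln5, on either side of the median of 52.4% over 32851 windows. The Fbln1 window holds a single E-box and no GC box, and the Fbln5 window 2 GC boxes and no E-box. This contrast depends on the start chosen. The window of another Fbln1 start has 62.4% GC, a GC box and an E-box. That of another Fbln5 start has 49.6% GC and neither a GC box nor an E-box. Efemp2, which rose on day 1, also has a window outside its exons and span, with 2 GC boxes. Windows of 7 of the 10 genes were searched on both strands, with several starts for some genes. Eln, Fbn2 and Mfap5 were not searched. The shares below are per window, so a gene with several starts had more chances of a match, and the 2 are not like for like. The windows of Fbn1, Fbln2 and Emilin1 lie wholly in annotated exon. A GC box was found before at least 1 start of Fbn1, Fbln1, Fbln2, Fbln5, Efemp1 and Efemp2, and 32.7% of all windows hold one. The E-box was found for Fbln1, with 6.02% of all windows. The short SMAD motif CAGAC (or GTCTG) was found before at least 1 start of Emilin1, Fbln1, Fbln5 and Efemp2, with 42.2% of all windows. In the printed windows it is present for Fbln1, in small letters, and absent for Fbln5, whose match lies before another start. The AP-1 motif TGACTCA (4.46% of all windows), the TEAD motif GGAATG (12.6%) and the TATA box TATAAA (12.4%) were in none of the 7. No motif contains another. A match is a run of letters, not a shown binding site.

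Other genes of the elastic fibre pathway also went both ways on day 1. Of 58 listed, 42 passed the filter, and of these 25 rose, 11 fell and 6 did not pass the test, with a median log2 change of 0.34 against 0.00 over all tested genes. Over all tested genes 31.1% rose and 31.1% fell in that comparison. On day 3, 21 of the 42 were higher than control and none lower, where 7.37% of all tested genes were higher and 6.45% lower. That count was 13 without day 3 replicate 3.

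Each count by list on day 1 is to be read against the 62.2% of all tested genes called, 31.1% higher and 31.1% lower. Counts on day 3 are to be read against 7.37% higher and 6.45% lower. The lists are small. Of the enzymes that cross-link elastin, all 4 lysyl oxidases tested rose on day 1, with Lox going from 76.4 ± 2.48 to 212 ± 13.0 FPKM (2.83-fold, adjusted p = 1.21e-07), and 3 of them were higher on day 3. Loxl1, the family member most tied to elastic fibre upkeep, went from 52.7 ± 3.16 to 85.8 ± 3.03 and then 60.0 ± 4.04 FPKM.

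Among the latent TGF-beta binding proteins, relatives of the fibrillins, 2 rose and 2 fell on day 1. Ltbp1 rose 2.75-fold from 4.69 ± 0.0472 to 12.8 ± 0.217 FPKM on day 1 (adjusted p = 2.40e-09), and Ltbp2 rose 2.67-fold from 18.6 ± 0.742 to 48.8 ± 1.93 FPKM (adjusted p = 6.68e-08). Ltbp4, which binds fibulin-4 and fibulin-5, fell 1.24-fold (adjusted p = 0.000318), and Ltbp3 was the other to fall. On day 3, 3 of the 4 were higher than control.

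Of 6 other genes of microfibril proteins tested, 4 fell and 1 rose on day 1: Fbln7, fibulin-7, fell 1.80-fold from 3.58 ± 0.178 to 1.91 ± 0.115 FPKM (adjusted p = 2.98e-05), while Mfap4 rose 1.70-fold from 30.0 ± 0.827 to 49.8 ± 0.763 FPKM (adjusted p = 2.95e-06). Of 6 ADAMTS and ADAMTS-like genes, a family of secreted proteins several of which bind fibrillin, 2 rose and 2 fell. Adamts6 rose 1.83-fold and Adamtsl4, whose product promotes microfibril assembly in the eye, fell 1.36-fold.

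Of 8 integrin chain genes tested, a list that includes chains that bind fibrillin, fibulin-5 or EMILIN1, 7 rose on day 1. Itga5 rose 2.89-fold from 16.6 ± 0.241 to 47.1 ± 3.73 FPKM (adjusted p = 7.58e-09), and Itgb8 was the 1 that fell, by 1.13-fold (adjusted p = 0.0258). Of 7 elastin-degrading enzymes, 3 rose and 2 fell: the gelatinase gene Mmp2 rose 1.80-fold and the cathepsin gene Ctss, which microglia express strongly, fell 1.94-fold. Ctss fell beside the microglia markers, whose sum went from 306 to 331 FPKM in control to 132 to 144 on day 1. Of 11 such markers tested, 10 fell, while Tmem119 rose 1.72-fold from 8.76 ± 0.174 to 14.8 ± 0.778 FPKM (limma adjusted p = 4.09e-07). The part of the microglia markers in the fall of Ctss was not tested. Of 7 genes of processing and secretion, 6 rose, led by Fkbp10, which encodes a chaperone of collagen and tropoelastin (1.92-fold, adjusted p = 4.32e-08).

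**Figure D5:**
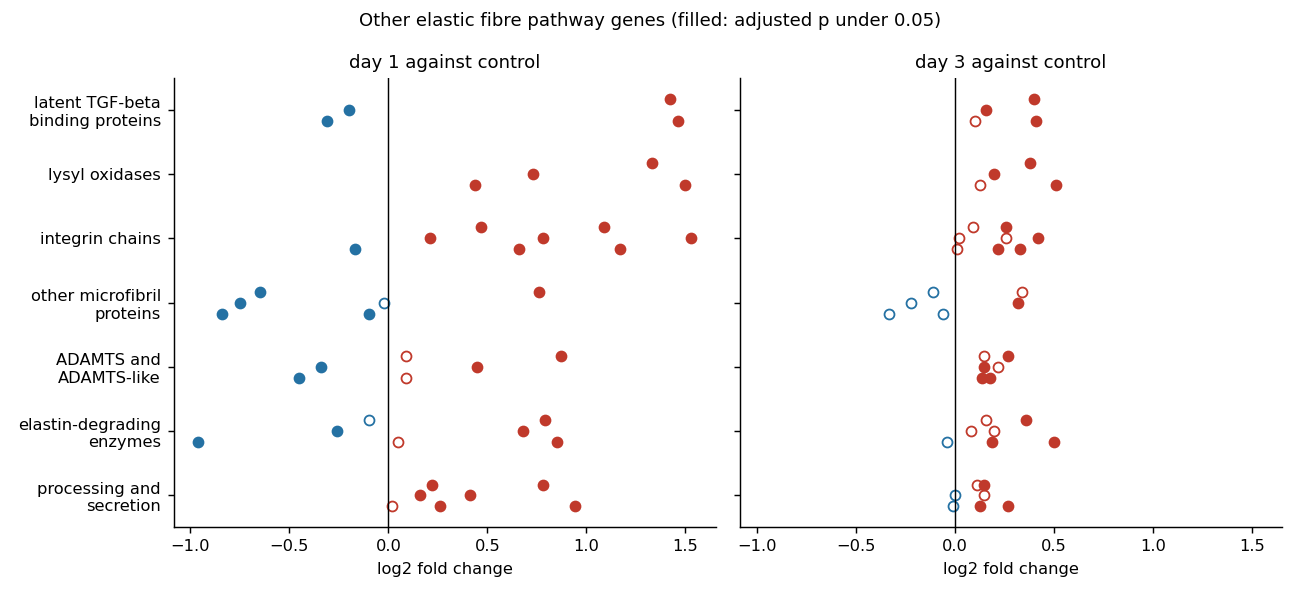
Log2 fold change (horizontal axis) of the 42 tested pathway genes by list, on day 1 and day 3 against control; red is higher, blue lower, filled passed the test. The lysyl oxidases lie at 0.44 to 1.50 on day 1, and on day 3 all lists lie within -0.33 to 0.51.

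The genes whose pattern over the 9 libraries was most like that of a member were found by Pearson correlation of the rescaled log2 levels, as a description only, since all points share the same 3 groups. Fbln2 was closest to the collagen gene Col1a2 (r = 0.9997) and Fbn1 to the cyclooxygenase gene Ptgs2 (0.9991), each over 9 libraries. Fbln1 was closest to the secreted glutathione peroxidase gene Gpx3 (0.9987) and Fbln5 to the septin gene Septin8 (0.9962). For Eln the nearest was Snx4 (0.9941), for Efemp2 Dcaf6 (0.9943) and for Mfap5 Gnpda2 (0.9930). Emilin1 came nearest to Adra1d (0.9872), and Efemp1 and Fbn2 both to Scd4 (0.9892 and 0.9806).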

How the data were processed

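RNA was sequenced in 9 libraries of primary mouse cortical astrocytes, 3 per group, matched to the columns of 1 deposited table by the name in each library's description; 0 value columns were left over. The values are FPKM, computed by the authors for each library. The tools named per the submitters' processing notes are STAR 2.7.3a, cutadapt 2.6, FastQC 0.12.1 and DESeq2, and the builds GRCm38 and mm10. What counted the reads, with which annotation and strand setting, is not stated in those sources.

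Whole reads were recovered for all 20350 genes above 0, to within 0.01 read, and served for depth and 1 alternative fit. Replicates differed by more than sampling noise (chi-square per degree of freedom 1.75 to 4.76). FPKM were rescaled by median-of-ratios factors of 0.976 to 1.02. The 12611 genes averaging 1 FPKM or more were taken as log2(FPKM + 0.1). All 9 libraries entered 1 fit on group alone in limma 3.58.1 (R 4.3.3), with a variance trend on intensity, two-sided tests and Benjamini-Hochberg adjustment over all genes tested. The fit was tested on simulated data. Related pairs of genes were compared by their ratio within a library with exact permutation tests (SciPy 1.17.1). Overlap between groups was judged on FPKM as deposited.

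The 10 genes and all lists were chosen with earlier results of these data known. The text names all 10 genes. Of each pathway list and comparison, the largest called rise and fall could be named, as could the gene most like each of the 10 and a few cell type markers. Loxl1, Ltbp2, Ltbp3, Mfap2 and Emilin2 were named after their values were seen, as were Tagln, Kcnj8, Abcc9, Higd1b, Notch3, Cspg4, Cdh5 and Tmem119. So were Igf2, Pdgfra, Foxc1, Crabp2, Tbx18, Twist1 and Aldh1a2. Alternatives covered the pseudocount, filter, scaling, libraries in the fit, replicate block, variance model, threshold and each library left out. Coordinates and promoter windows are from RefSeq (GRCm38.p6), exon overlaps from GENCODE M21. Figures were drawn with matplotlib 3.10.9.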

Additional observations from a re-analysis of the deposited data

Results flagged for a closer look

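The day 3 libraries differed from the day 1 libraries for 9 of the 10 genes, by the limma test of day 3 against day 1. There is 1 control group, of no stated harvest time, so the time since treatment and the time in culture cannot be told apart. The log2 difference, day 3 minus day 1, was -1.40 for Fbln2, -1.01 for Fbn1, -0.87 for Eln, -0.53 for Mfap5 and -0.17 for Efemp2. It was 1.22 for Fbln1, 0.73 for Efemp1, 0.48 for Fbln5 and 0.42 for Fbn2. For Efemp1 the values against control were -0.39 on day 1 and 0.34 on day 3, for Fbn2 -0.17 and 0.24, and for Fbln1 -1.08 and 0.13, each pair sharing the control libraries.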

How the results depend on the processing

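Of the 10 genes, 10 were called on day 1, 6 on day 3 and 9 between the days; over all alternatives these counts ran from 9 to 10, 4 to 6 and 8 to 9, and Mfap5 was not tested at a filter of 5 FPKM. Every called change kept its direction in every fit that tested the gene. The day 3 value of Eln, not called, went from -0.08 to 0.01 without control replicate 3, and ran from -0.16 to 0.01 with single libraries left out; the cause was not tested.

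With single libraries left out, the pathway genes called on day 3 ran from 13 to 21 and all genes from 1022 to 1772 (1742 with all libraries); the lowest came without day 3 replicate 3, and without day 3 replicate 1 all genes called were 1030. At an adjusted p under 0.01 they were 13 and 751, since fewer genes pass a stricter threshold. The other counts called stayed within 1.5 times.

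With the replicate number as a block, 10, 6 and 9 of the 10 genes were called, pathway genes were 36, 24 and 35, and all genes 7894, 1807 and 7167. Deviations of same-numbered libraries from their group means correlated at -0.079 to 0.111, above 0.1 for 1 of 9 pairs. Those of libraries with unlike numbers correlated at -0.149 to 0.147. With so few libraries this cannot tell whether those of the same number share a culture or batch. Within numbers, each ratio difference had an exact sign-flip p of 0.25, the smallest that 3 pairs allow. Leaving out the 2 libraries with most Rn45s was chosen after seeing the data. Depth limits Mfap5 the most.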

Other observations

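Several relatives of the 10 genes averaged under 1 FPKM and were not tested. Emilin3 and Mmrn1 averaged 0.0422 and 0.000861 FPKM over the 9 libraries. The hemicentin genes Hmcn1 and Hmcn2, giant relatives of the fibulins, averaged 0.318 and 0.292 FPKM, though Hmcn1 is long and had 126 to 268 reads per library. Hmcn1 was at 0.232 ± 0.0169 FPKM in control, 0.433 ± 0.0817 on day 1 and 0.290 ± 0.0410 on day 3. Hmcn2 was at 0.228 ± 0.0151, 0.347 ± 0.0116 and 0.300 ± 0.0143 FPKM. Among genes under the filter, Mmp9, a gelatinase that can cut elastin, was at 0.0609 ± 0.0531 FPKM in control, 0.992 ± 0.130 on day 1 and 0.0893 ± 0.0352 on day 3, and Adamtsl2, whose product binds fibrillin, at 0.245 ± 0.0405, 0.817 ± 0.0552 and 0.378 ± 0.0526 FPKM (SD, n = 3). Loxl4, the remaining lysyl oxidase, was at 0.532 ± 0.0775, 1.17 ± 0.154 and 0.661 ± 0.0845 FPKM. These genes were picked after their values were seen.

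Mfap2, which encodes MAGP1, the close relative of MAGP2 from Mfap5, was at 22.3 ± 0.113 FPKM in control, 20.3 ± 1.19 on day 1 and 21.2 ± 0.719 on day 3. It fell by 0.10 on the log2 scale on day 1 (limma adjusted p = 0.0347), where Mfap5 rose by 0.65; the difference between the 2 genes was not tested.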
